A study of Mus musculus with 8 samples.

Results

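Fibronectin, encoded by Fn1, was detected in 283 of the 1388 cell barcodes of a stomach gland single-cell table that held at least 100 unique molecular identifiers (UMIs, each counted as 1 captured RNA molecule). The members were chosen by the measured values themselves: a barcode counted as an Fn1 barcode when it held 1 or more Fn1 UMIs, and the other 1105 barcodes held none. All barcodes came from the mouse genotype Atp4bCre; Rosa26NICD; Arid1aflox/flox at 23 weeks of age, under 8 sample labels, and no other genotype, treatment or age was compared. Every cell thus came from an animal carrying Cre under the control of Atp4b, a proton pump gene of acid-secreting parietal cells, an activated Notch intracellular domain at Rosa26 and floxed Arid1a, a chromatin remodeller gene, so neither an animal without Cre nor one with intact Arid1a served as a control. Gland cells were sorted for high EPCAM, an epithelial surface protein, and for low uptake of a dye that enters dead cells, and were profiled on the droplet-based 10x platform. The barcodes carried no sample number, so they were described as 1 pooled sample without replicates, no p-value is given, and all intervals are 95% intervals that cover counting error only.

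Fibronectin is a secreted glycoprotein that assembles into fibrils outside the cell and binds integrins, the receptors that tie cells to their matrix. Fibroblasts are its best known source. Epithelial cells make more of it in wound repair, in epithelial-mesenchymal transition and in many carcinomas. Insulin-like growth factor binding proteins such as those encoded by Igfbp2 and Igfbp5 are secreted too, bind the growth factors outside the cell, and can also bind matrix or cell-surface proteins. Irs1 encodes the docking protein that passes the signal of the insulin and insulin-like growth factor receptors into the cell.

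The table covered part of mouse chromosome 1. Of its 779 complete gene rows, 711 matched a symbol in GENCODE vM21 (build GRCm38, also called mm10), and all of these lay between positions 3102016 and 89933290 of chromosome 1. A barcode's total is therefore its total over these genes and not its library depth, and the level of a gene is its share of these UMIs in counts per 1000000 (CPM). The 3 ribosomal protein genes Rpl37a, Rpl7 and Rpl31 alone held 39.8% of the UMIs other than Fn1 in the Fn1 barcodes and 40.4% in the others. The 1388 barcodes held 439743 UMIs.

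Fn1 (ENSMUSG00000026193) lies on the minus strand of chromosome 1, at chr1:71585520-71653200, and overlaps Apol7d, which had 9 UMIs. It had 483 UMIs in the 1388 barcodes, or 1098 CPM (1003 to 1201). Most Fn1 barcodes rested on a single molecule: 173 held 1 Fn1 UMI, 60 held 2, 26 held 3, 15 held 4, 5 held 5, 2 held 6, 1 held 7 and 1 held 8. Members with 1 UMI made up 61.1% of all members. The 50 barcodes with 3 or more UMIs held 190 Fn1 UMIs, which was 39.3% of them all. If the Fn1 UMIs had been spread in proportion to total UMIs, about 396 barcodes would hold at least 1 and about 11.3 would hold at least 3. Fn1 thus sat in fewer barcodes, and more deeply in some of them, than an even spread gives. These are the values that chose the members and are given as a description.

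The barcode with 8 Fn1 UMIs had 238 UMIs in all, and the barcode with 7 had 282. The 2 barcodes with 6 had totals of 189 and 536, and the 5 barcodes with 5 had totals from 120 to 203. The barcodes richest in Fn1 were thus not the deepest ones, whose totals reached 999 among the members and 1082 among the others. Among these 9 barcodes, Igfbp2 was present in 1, with 12 UMIs, and Igfbp5 in 0. Itm2c was present in most of them, with 1 to 5 UMIs, and in 62.9% of all Fn1 barcodes. Spats2l, Fhl2 and Rdh10 were each present in some of the 9. Near the limit of 100 UMIs, 2 of the 20 barcodes less than 10 UMIs above it held Fn1, with 3 UMIs together, and 1 of the 17 barcodes up to 10 UMIs below it did, with 2 UMIs.

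Finding an Fn1 UMI did not become more frequent with depth. The share of barcodes with Fn1 was 20.4% (18.3 to 22.6) in all. The barcodes were divided into 5 bins of total UMIs that begin at 100, 200, 300, 400 and 600. The share was 22.7% of the 330 barcodes in the first and shallowest bin, 19.0% of 405 in the next, then 19.9% of 307 and 20.2% of 277, and 20.3% of the 69 with 600 or more. An even spread over UMIs would give 15.8% in the shallowest and 53.4% in the deepest of these bins. Accordingly, the number of Fn1 UMIs per barcode was about level, at 0.385, 0.338, 0.303, 0.361 and 0.377 from the shallowest to the deepest bin. The level relative to other genes therefore declined, from 2457 CPM (2049 to 2924) through 1359, 875 and 754 to 539 CPM (352 to 789). Vil1, which encodes the brush border protein villin, did not share that decline and lay between 3762 and 3957 CPM in the 5 bins.

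**Figure D1:**
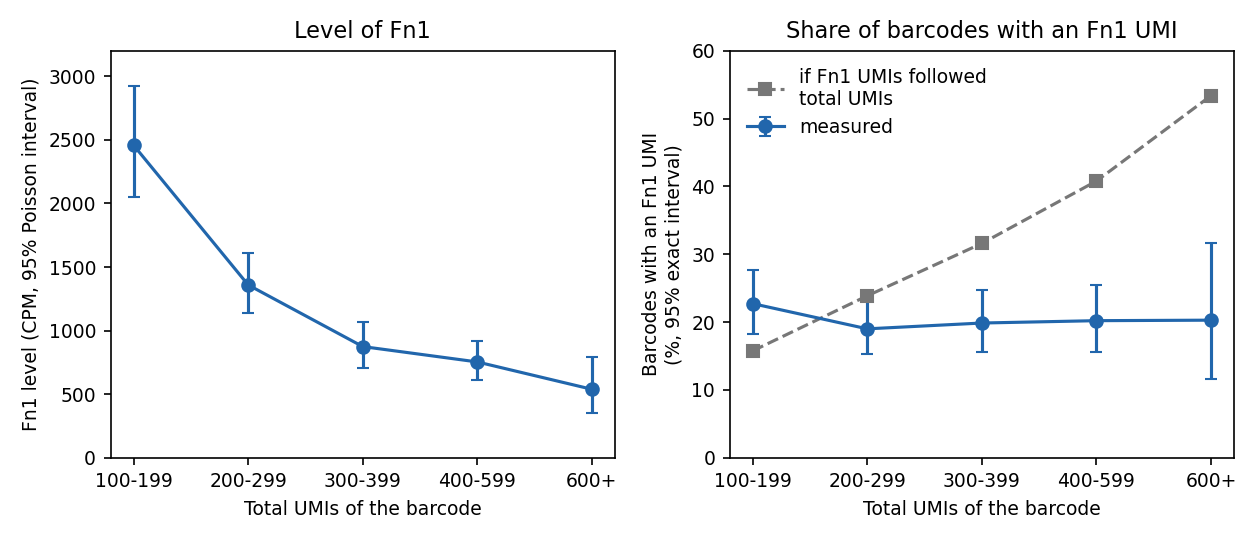
Level of Fn1 in CPM with exact Poisson intervals (left) and share of barcodes with an Fn1 UMI with exact binomial intervals (right) against the total UMIs of the barcodes. The level goes from 2457 to 539 CPM, while the share stays between 19.0% and 22.7% and leaves the grey squares, which show the share if Fn1 UMIs followed total UMIs.

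Fn1 was among the genes with the steepest such decline. Its level in barcodes with under 200 UMIs was 3.53 times (2.74 to 4.55) that in barcodes of 400 or more, which placed it at rank 9 of 240 genes, where the median over genes was 1.17. Igfbp5 had rank 2 with a ratio of 14.4 (8.27 to 26.7), Igfbp2 rank 5 with 5.35 (2.80 to 10.5) and Itm2c rank 8 with 3.77 (3.28 to 4.33). Itm2c encodes a membrane protein of the BRI family. Irs1 had a ratio of 1.99 (1.17 to 3.32) and Spats2l, whose product is found in stress granules, a ratio of 1.04 (0.814 to 1.33). Fn1, Igfbp5, Igfbp2 and Itm2c were thus relatively high in barcodes with few UMIs, and Spats2l was not. What sets the totals of these barcodes, and any part of RNA free in the cell suspension, was not tested. After every barcode was thinned to 100 UMIs, Fn1 was left in 10.5% of barcodes (8.95 to 12.3), and in 17.3%, 10.9%, 8.14%, 6.86% and 1.45% of the barcodes of the 5 bins.

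Because of this dependence, the other genes were compared within the 5 bins of total UMIs. The Fn1 barcodes had a median total of 283 UMIs and the others 286, so both groups had about the same depth. They also had about the same number of genes, with medians of 73 and 72, and of 37 and 36 after thinning. A depth-matched ratio is the level in Fn1 barcodes over the level in barcodes without Fn1, as 1 common ratio over the bins with Fn1 left out of the totals. Ratios given below with members chosen after thinning used no bins. Such members were more frequent among shallow barcodes, so those ratios are not depth-matched. Levels in CPM given below, also those by number of Fn1 UMIs, pool all bins and are not depth-matched either. Of 239 genes with at least 50 UMIs, 7 (2.93%) were at least 1.5-fold higher in Fn1 barcodes and 14 (5.86%) were at least 1.5-fold lower. The other 218 (91.2%) lay within 1.5-fold, and the median ratio was 1.01. Among the 52 genes with 1000 or more UMIs the ratio ranged from 0.693 for Rdh10 to 1.34 for Fhl2. When members needed 2 or more Fn1 UMIs, which leaves 110 barcodes, 19 genes (7.95%) were past 1.5-fold higher and 22 (9.21%) lower, and 5 and 11 of these were the same genes as with 1 UMI. These counts carry no estimate of what barcodes of 1 kind would give.

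**Figure D2:**
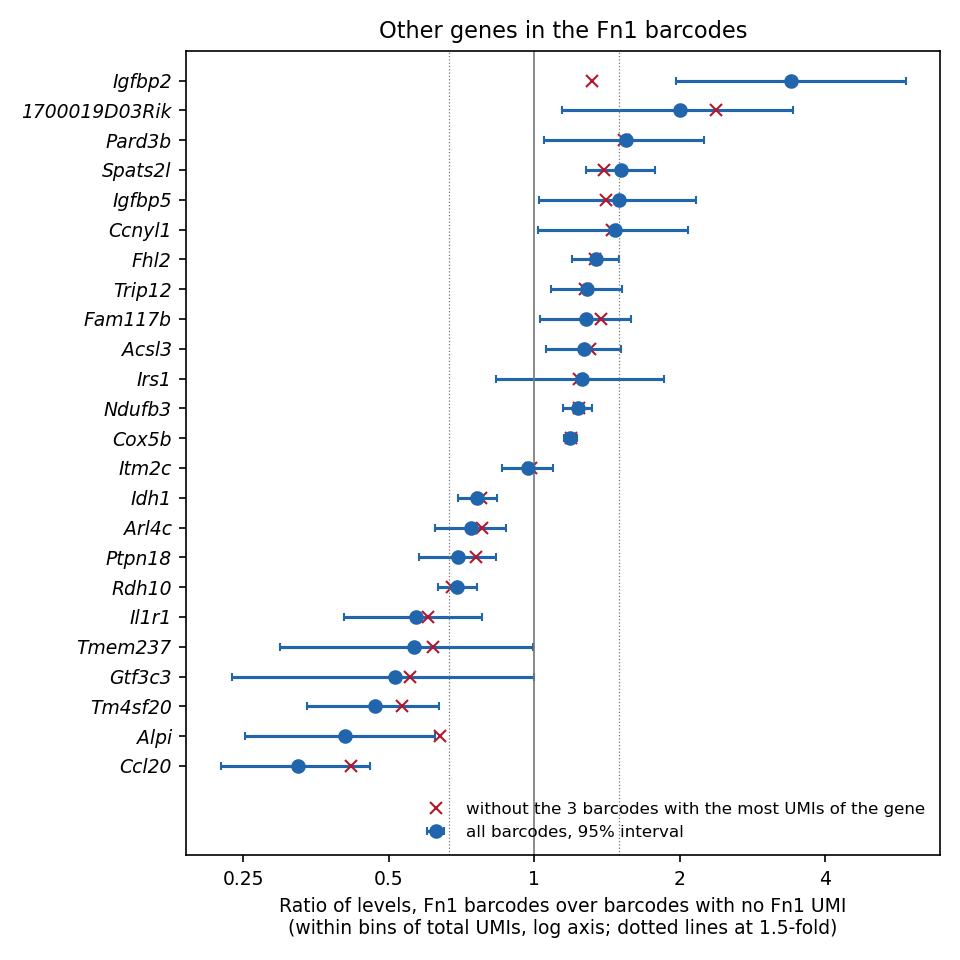
Depth-matched ratio of levels, Fn1 barcodes over barcodes with no Fn1 UMI, on a log axis with 95% intervals, for the genes singled out by rule (Myl1, at 0.0803, lies outside the axis) and for Cox5b, Ndufb3 and Idh1. Crosses leave out the 3 barcodes richest in each gene, which moves Igfbp2 from 3.40 to 1.32 and Alpi from 0.405 to 0.639.

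Among the genes of insulin-like growth factor signalling, Igfbp2 had the highest ratio of all genes, but in few cells. It had 28 UMIs in 8 of the 283 Fn1 barcodes and 31 UMIs in 16 of the 1105 others, which gave a ratio of 3.40 (1.96 to 5.86). Of its 59 UMIs, 25 lay in 3 barcodes: 12 in a barcode with 6 Fn1 UMIs, 7 in a barcode with 4 and 6 in a barcode with none. Without these 3 barcodes the ratio was 1.32. Its level was 88.4 CPM with no Fn1 UMI, 133 CPM with 1, 52.8 CPM with 2 and 1179 CPM (720 to 1821) with 3 or more. The last value comes from 20 UMIs, of which 19 lay in the 2 barcodes with 6 and 4 Fn1 UMIs just named. Fn1 was found in 33.3% (15.6 to 55.3) of the 24 barcodes with Igfbp2, where 21.1% is the share at their depth, so the interval includes that share.

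Igfbp5, which lies next to Igfbp2 on chromosome 1, was present in 23 Fn1 barcodes and 69 others. Its levels were 475 CPM (342 to 642) and 305 CPM (250 to 369), a ratio of 1.4985 (1.02 to 2.16). The bins did not go one way: the ratio was 14.4 in the bin that begins at 400 UMIs, from 11 UMIs against 3, and between 0.679 and 1.28 in the 3 shallower bins. Of those 11 UMIs, 8 lay in 1 barcode with 3 Fn1 UMIs. Without the 3 barcodes richest in Igfbp5, its ratio over all bins was 1.41. With 600 or more UMIs, 0 of its 2 UMIs lay in Fn1 barcodes. With members chosen after thinning, and without bins, its ratio was 2.63. Irs1 had 35 UMIs in Fn1 barcodes and 110 in the others, with a ratio of 1.26 (0.833 to 1.85). Irs1 was above 1 in 5 of 5 bins, at 1.16 to 1.88. Its ratio was 1.94 (1.15 to 3.11) in barcodes with 2 or more Fn1 UMIs and 0.823 (0.436 to 1.44) in those with 1. Its level did not follow the number of Fn1 UMIs, at 314, 266, 845 and 295 CPM with 0, 1, 2 and 3 or more. Of the 6 genes of this list with 50 or more UMIs, 4 had a ratio above 1, against 124 of all 239 genes, 1 (Igfbp2) was past 1.5-fold higher and 1 was past 1.5-fold lower, against 2.93% and 5.86% of all genes, and the median was 1.16 against 1.01. The lower one was Inpp5d, the lipid phosphatase SHIP1 that limits signalling downstream of such receptors, at 0.414 (0.128 to 1.04), from 5 UMIs in 2 Fn1 barcodes and 46 in the others.

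Itm2c showed no detectable difference between Fn1 barcodes and the others. Its level was 3809 CPM in Fn1 barcodes and 3889 CPM in the others, a ratio of 0.969 (0.857 to 1.09). It was found in 62.9% of Fn1 barcodes and in 64.4% of the others. The ratios of the bins lay on both sides of 1, from 0.725 to 1.15. Itm2c and Fn1 thus shared their decline with depth, but Itm2c was not detectably higher or lower in Fn1 barcodes of the same depth.

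Spats2l was the most widely found of the 7 genes past 1.5-fold higher. It was present in 115 Fn1 barcodes (40.6%, 34.9 to 46.6) and in 356 others (32.2%, 29.5 to 35.1). Its level was 2305 CPM (2000 to 2645) against 1528 CPM (1401 to 1663), a ratio of 1.51 (1.28 to 1.78), and 1.39 without the 3 barcodes richest in it. The ratio was above 1 in 5 of 5 bins, at 1.95, 1.37, 1.64, 1.27 and 1.77 from the shallowest to the deepest. It did not climb with the number of Fn1 UMIs: the ratio was 1.66 (1.37 to 2.01) in barcodes with 1 Fn1 UMI and 1.27 (0.978 to 1.64) in those with 2 or more. Read the other way, 24.4% (20.6 to 28.6) of the 471 barcodes with Spats2l held Fn1, against 20.1% at their depth. Spats2l overlaps Gm17234, and whether the counting used strand is not given in the sources used here.

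Fhl2, which encodes a LIM-domain protein that binds integrins and acts as a transcriptional cofactor, had a smaller ratio measured with more UMIs. It had 414 UMIs in Fn1 barcodes and 1223 in the others, with a ratio of 1.34 (1.20 to 1.498) that was above 1 in 5 of 5 bins, at 1.11 to 1.60. Its level was 3487 CPM (3294 to 3688) with no Fn1 UMI, 4336 CPM (3791 to 4937) with 1, 4488 CPM (3585 to 5550) with 2 and 5953 CPM (4849 to 7234) with 3 or more. The interval at 3 or more lies above that at 0, and those at 1 and 2 overlap each other. Fhl2 was also the gene whose residuals followed those of Fn1 most closely over the 1388 barcodes, with a correlation of 0.131, before Cox5b (0.104), Tmem131 (0.103), Igfbp2 (0.094) and Unc50 (0.086). Correlations of this size in sparse counts are given as a description only.

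**Figure D3:**
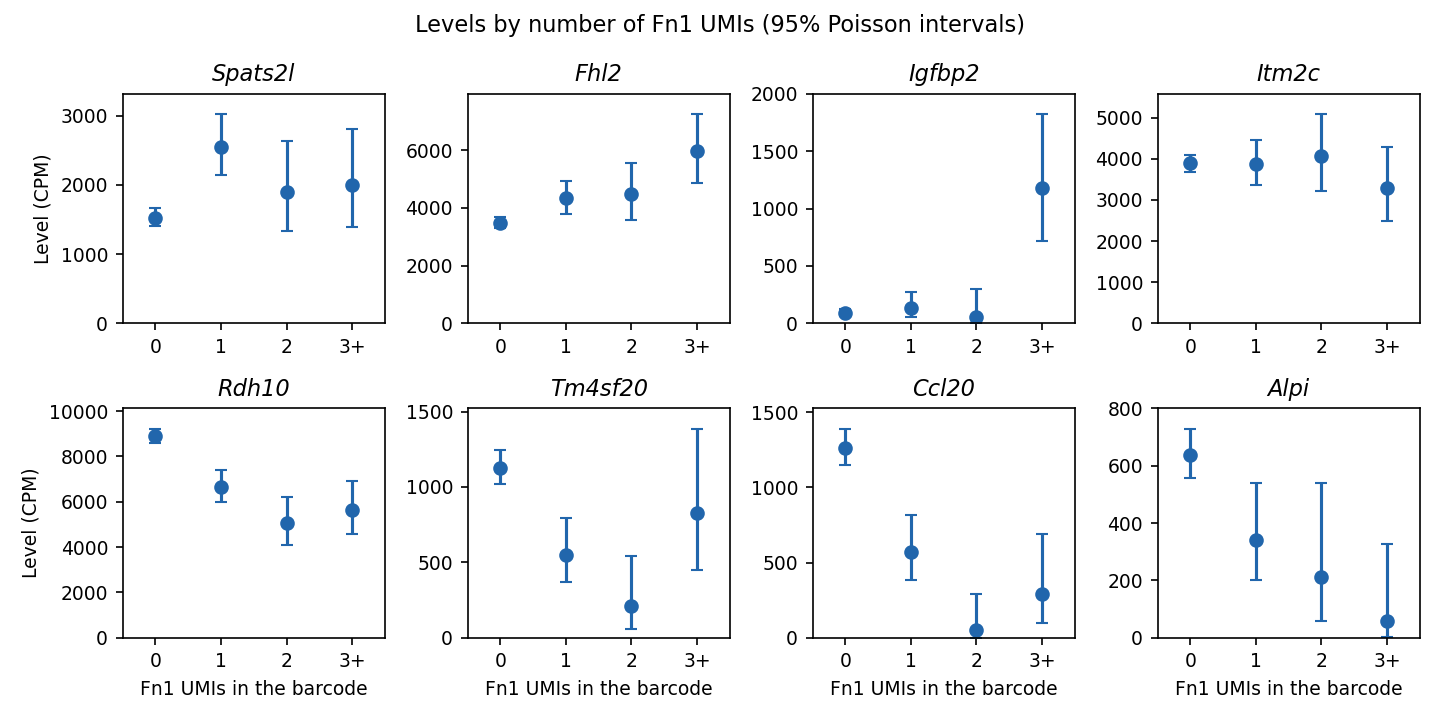
Levels in CPM with exact Poisson 95% intervals in the barcodes with 0, 1, 2 and 3 or more Fn1 UMIs (1105, 173, 60 and 50 barcodes), for 8 genes. These levels pool all bins of total UMIs and are not depth-matched. Fhl2 goes from 3487 to 5953 CPM and Rdh10 from 8892 to 5658 CPM, Itm2c stays at one level within its intervals, and Igfbp2 is high at 3 or more, where 19 of 20 UMIs are from 2 barcodes.

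The other genes singled out as higher ranged from sparse ones to Trip12 with 748 UMIs. The uncharacterised gene 1700019D03Rik had 22 UMIs in 18 Fn1 barcodes and 43 in 39 others, a ratio of 2.00 (1.14 to 3.43) that was above 1 in 5 of 5 bins. It was 3.44 (1.77 to 6.33) with 2 or more Fn1 UMIs and 1.06 (0.403 to 2.39) with 1, and its level was 123, 133, 634 and 177 CPM with 0, 1, 2 and 3 or more, so the high value was that at 2. Pard3b, which encodes a cell polarity protein of the PAR3 family found at epithelial junctions, had 41 and 103 UMIs and a ratio of 1.55 (1.05 to 2.24). In the shallowest bin the ratio of Pard3b was 2.92, and it was below 1 in 2 deeper bins. With members chosen after thinning, and without bins, it was 2.79. The level of Pard3b was itself higher in shallow barcodes, at 3.10 times (1.96 to 4.89) under 200 UMIs that at 400 or more. Ccnyl1, a cyclin-like gene, had a ratio of 1.47 (1.02 to 2.08), or 0.809 with members chosen after thinning, and Trip12, a ubiquitin ligase gene, 1.28 (1.08 to 1.52). Fam117b stood at 1.28 (1.03 to 1.59) and Acsl3, whose product activates long-chain fatty acids, at 1.27 (1.06 to 1.51). Of these, Acsl3 overlaps Utp14b, Ccnyl1 overlaps 2810408I11Rik, Fam117b overlaps Ica1l and Trip12 overlaps Fbxo36. The remaining 3 genes past 1.5-fold were 1700066M21Rik at 1.70 (0.967 to 2.88), Slc23a3 at 1.56 (0.989 to 2.41) and Sbspon at 1.505 (0.789 to 2.73), and their intervals include 1.

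Of the 9 genes measured in the respiratory chain and mitochondrial ribosome list, Cox5b and Ndufb3 were higher in Fn1 barcodes with intervals above 1. In that list 8 had a ratio above 1, against 124 of all 239 genes, and 0 were past 1.5-fold, with a median of 1.08 against 1.01 over all genes. Cox5b, a subunit of cytochrome c oxidase, had 4819 UMIs in Fn1 barcodes and 16124 in the others, or 54460 and 45967 CPM. Its ratio was 1.19 (1.15 to 1.23) and above 1 in 5 of 5 bins, at 1.06 to 1.31. Ndufb3, a subunit of complex I, had 1055 and 3394 UMIs and a ratio of 1.23 (1.15 to 1.32), also above 1 in 5 of 5 bins. Ndufs1, another subunit of complex I, had 1.17 (0.979 to 1.39), Hibch had 1.24 (0.929 to 1.63) and Bcs1l 1.08 (0.778 to 1.46). The mitochondrial ribosome genes Mrpl30, Mrpl44 and Mrps9 had 1.04 (0.969 to 1.13), 1.02 (0.836 to 1.24) and 1.02 (0.849 to 1.23). Acadl, which encodes a dehydrogenase of fatty acid oxidation and stands in another list, had 1.15 (1.01 to 1.30).

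The exception in the respiratory list was Idh1, whose product is a cytosolic, NADPH-forming isocitrate dehydrogenase rather than part of the chain. Idh1 had 6148 CPM in Fn1 barcodes and 8108 CPM in the others, a ratio of 0.763 (0.695 to 0.837). It was below 1 in 5 of 5 bins, at 0.627 to 0.864. The ratio was 0.653 (0.562 to 0.759) in barcodes with 2 or more Fn1 UMIs and 0.837 (0.749 to 0.936) in those with 1. Gsta3, a glutathione transferase gene, had a ratio of 0.875 (0.818 to 0.935), but in the 69 barcodes with 600 or more UMIs it was 1.57 (1.34 to 1.84).

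Rdh10, which encodes the retinol dehydrogenase of the first step towards retinoic acid, was the lowest of the abundant genes. It had 542 UMIs in Fn1 barcodes and 3119 in the others, or 6125 CPM (5620 to 6663) and 8892 CPM (8582 to 9209), a ratio of 0.693 (0.632 to 0.760). The ratio was 0.905, 0.781, 0.504, 0.6004 and 1.06 from the shallowest to the deepest bin. With 2 or more Fn1 UMIs the ratio was 0.609 (0.525 to 0.706). Arl4c, a small GTPase gene, stood at 0.606 to 0.682 in the 3 middle bins and at 1.06 and 0.987 in the outer ones, with 0.740 (0.623 to 0.874) over all and 1.23 when members were chosen after thinning. Ptpn18, a tyrosine phosphatase gene, had 0.696 (0.578 to 0.832). Of 2 other cytoskeletal genes, Arpc2 had 0.881 (0.833 to 0.931) and Tuba4a had 1.06 (0.954 to 1.17).

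**Figure D4:**
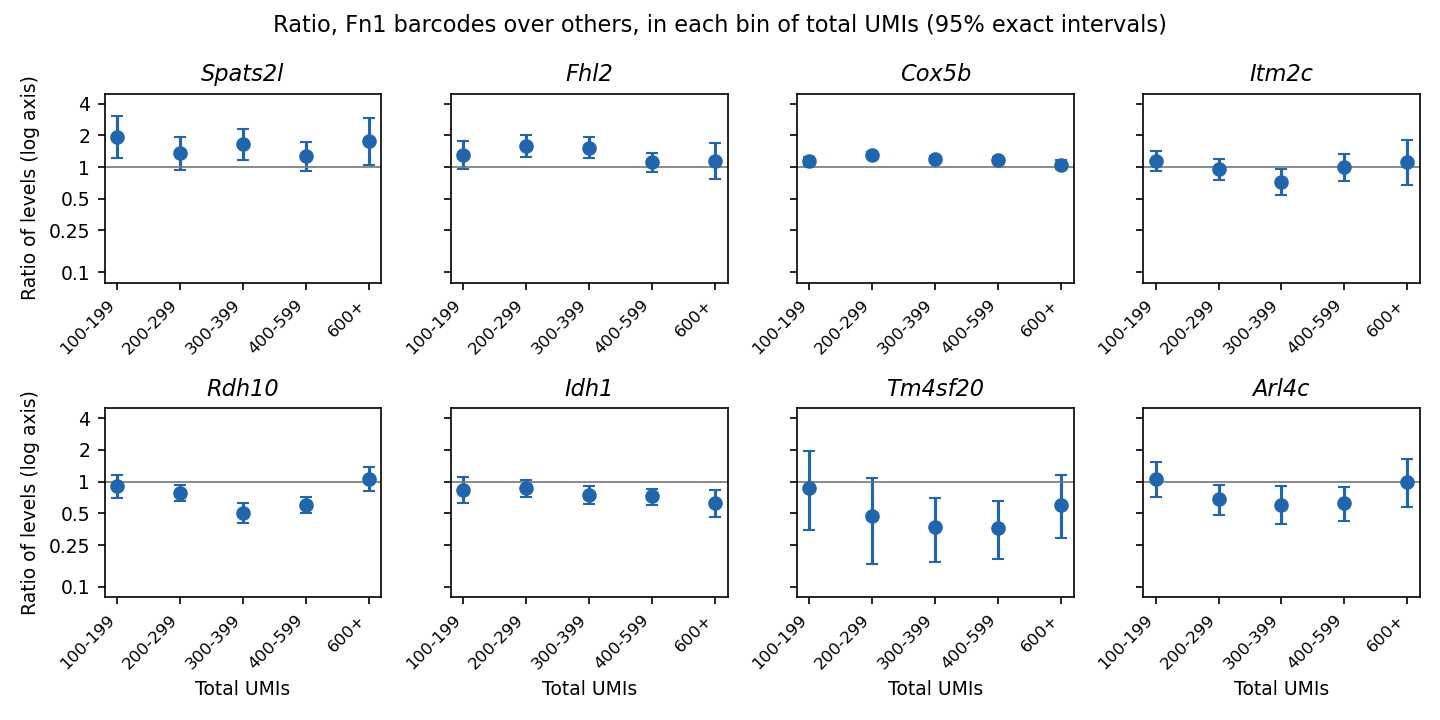
Ratio of levels, Fn1 barcodes over others, in each bin of total UMIs, on a log axis with exact 95% intervals. Spats2l, Fhl2 and Cox5b lie above 1 in 5 of 5 bins and Idh1 and Tm4sf20 below 1 in 5 of 5, the intervals of Rdh10 and Arl4c lie below 1 in the 3 middle bins and include 1 in the outer bins, and Itm2c falls on both sides of 1.

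Ccl20, Alpi, Tm4sf20 and Il1r1 were among the 10 lowest genes singled out. Ccl20, a chemokine of epithelia that draws CCR6-bearing lymphocytes and dendritic cells, was present in 16 Fn1 barcodes (5.65%, 3.27 to 9.02) and in 127 others (11.5%, 9.67 to 13.5). Its level was 407 CPM (285 to 563) against 1266 CPM (1151 to 1389), a ratio of 0.324 (0.224 to 0.456) that was below 1 in 5 of 5 bins. Of its 480 UMIs, 102 lay in 3 barcodes with no Fn1 UMI, without which the ratio was 0.418, and it was 0.493 with members chosen after thinning. With 2 or more Fn1 UMIs it was 0.144 (0.0526 to 0.316), from 6 UMIs. Il1r1, the signalling receptor of interleukin 1, had 44 UMIs against 313 and a ratio of 0.568 (0.404 to 0.780). Il1r2, the decoy receptor of interleukin 1, had 0 UMIs in Fn1 barcodes and 28 in the others, where a count of 0 allows up to 33.9 CPM and the others had 79.8 CPM. Of the 4 genes of the interleukin receptor and chemokine list with 50 or more UMIs, 4 had a ratio below 1, against 115 of all 239 genes, and 3 were past 1.5-fold lower, against 14 of 239 (5.86%), with a median of 0.586 against 1.01. Beside Ccl20 and Il1r1 this was Il18rap at 0.603 (0.309 to 1.09), while its partner Il18r1 had 0.989 (0.764 to 1.27).

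Tm4sf20, a tetraspanin-like gene of intestinal epithelium, was present in 23 Fn1 barcodes (8.13%) and 160 others (14.5%), with a ratio of 0.468 (0.338 to 0.635) that was below 1 in 5 of 5 bins. Alpi, the intestinal alkaline phosphatase gene, had 23 UMIs in 9 Fn1 barcodes and 224 in 52 others, a ratio of 0.405 (0.252 to 0.624). It rested on few cells: 83 of its 247 UMIs lay in 3 barcodes, all without Fn1, and the ratio was 0.639 without them. It was 0.197 (0.0634 to 0.467) with 2 or more Fn1 UMIs, from 5 UMIs. The bins of Alpi also went both ways, with 2.88 (1.45 to 5.60) in the bin from 300 UMIs and 0.0997 (0.0203 to 0.299) in the bin from 400. Vil1, by contrast, had 3888 CPM in Fn1 barcodes and 3854 CPM in the others, a ratio of 1.01 (0.893 to 1.14), and Cyp27a1, a sterol hydroxylase gene of the same list, had 0.912 (0.531 to 1.49). Thus 2 of the 4 measured genes of the intestinal and brush border list were past 1.5-fold lower, against 5.86% of all genes, and the median was 0.690 against 1.01.

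Other lower genes had few UMIs. Gtf3c3, of a general transcription factor of RNA polymerase III, had 10 UMIs against 77 and a ratio of 0.515 (0.237 to 0.999), or 0.278 with members chosen after thinning. Tmem237, a gene of the ciliary transition zone that overlaps G730003C15Rik, had 14 against 98 and 0.565 (0.298 to 0.993), or 0.301 (0.0610 to 0.907) with 2 or more Fn1 UMIs. Myl1, a light chain of muscle myosin, had 1 UMI against 52 and 0.0803 (0.00200 to 0.468), with 36 of its 53 UMIs in 3 barcodes, without which it was 0.239. Resp18, a gene of endocrine secretory cells, had 3 UMIs against 71 and 0.149 (0.0300 to 0.453), but 60 of its 74 UMIs lay in 3 barcodes and the ratio was 1.12 without them. The other 4 genes past 1.5-fold lower that have not been named, Arid5a, Bag2, Kdelc1 and Pkhd1, had ratios from 0.483 to 0.659 with intervals that include 1.

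The share of Fn1 barcodes was also read within barcodes marked by other genes, against the share at the same depth. It was 11.2% (6.53 to 17.5) of the 143 barcodes with Ccl20 against 20.1%, and 12.6% (8.14 to 18.3) of the 183 with Tm4sf20 against 20.2%. It was 14.6% (10.1 to 20.02) of the 213 barcodes with 2 or more Arl4c UMIs against 20.2%. The intervals included the share at that depth in 5 other groups: 23 of 92 with Igfbp5 (16.6 to 35.1) against 20.8%, 18.0% (11.99 to 25.4) against 20.1% of the 139 barcodes with the highest Gsta3 shares, 2 of 28 with Inpp5d (0.877 to 23.5) against 20.8%, 7 of 43 with Sgol2 (6.81 to 30.7) against 20.1% and 9 of 61 with Alpi (6.98 to 26.2) against 20.1%. Median totals were 298 UMIs for Ccl20, 352 for Tm4sf20 and 300 for Arl4c. No cell type known to lack Fn1 could be named from these genes, so no group gave a background share, and the lowest share over more than 100 barcodes was that of the Ccl20 barcodes.

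Markers of other cell types were counted over their whole lists. Of 8 fibroblast and muscle genes with a row, Col3a1 and Col5a2, collagen genes that define fibroblasts, had 0 UMIs in Fn1 barcodes and 1 each in the others, and Pax3, Chrnd and Chrng had 0 in all. Des, of muscle intermediate filaments, had 1 UMI in Fn1 barcodes. The list summed to 67.8 CPM in Fn1 barcodes and 234 CPM in the others, where 52 of its 82 UMIs were Myl1, a gene with 36 UMIs in 3 barcodes. Of 12 immune genes with a row, 10 had a UMI, and they summed to 1639 CPM and 1896 CPM. Among the sparser immune genes, Cd28, Ctla4 and Icos, which define T cells, had 0 UMIs in Fn1 barcodes and 3, 13 and 4 in the others. Stat4 went the other way, with 6 UMIs in 5 Fn1 barcodes and 3 in the others, and so did Slc11a1, a transporter gene of macrophages, with 4 UMIs in 2 Fn1 barcodes and 0 in the others. A count of 0 allows up to 33.9 CPM in Fn1 barcodes. In the others Cd28, Icos, Col3a1 and Col5a2 were below that, so their zeros cannot show whether the levels differed. Ctla4 had 37.1 CPM in the others, only just above that limit. Nrp2, the only endothelial gene measured, had 0.862 (0.632 to 1.16). Endocrine genes summed to 339 and 527 CPM, and 71 of the 185 UMIs in the others were Resp18, a gene with 60 UMIs in 3 barcodes. Ptprn gave 26 of the 30 endocrine UMIs in Fn1 barcodes, from 5 barcodes, and had 1.18 (0.732 to 1.85). Its ratio was 2.03 (1.26 to 3.18) in barcodes with 1 Fn1 UMI, and it had 0 UMIs in those with 2 or more. Without the 3 barcodes richest in Ptprn the ratio was 0.539. Tuft genes summed to 1763 and 2552 CPM, of which Ptpn18 gave 142 of 156 UMIs and 804 of 895, with 66 of its UMIs in 3 barcodes. The gastric gene Slc9a4 had 0.864 (0.733 to 1.02). The part of any such cells in the ratios above was not tested. Too few defining genes of any epithelial cell type had a row, so the barcodes are called Fn1 barcodes and are given no cell type.

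Several groups had a median near 1. The 4 ribosome and elongation genes ranged from 0.964 to 1.01. The 4 genes of the Myc target and nucleolus list ranged from 0.973 to 0.989, among them the chaperonin genes Hspd1 and Hspe1 and the nucleolar genes Ncl and Nop58. The 6 proliferation genes had a median of 1.06 with 3 above and 3 below 1. Mcm3, a subunit of the replicative helicase, had 0.930 (0.702 to 1.22), Prim2 1.44 (0.892 to 2.27) and Hjurp 1.19 (0.896 to 1.55). In barcodes with 2 or more Fn1 UMIs Hjurp had 1.58 (1.09 to 2.22), and in those with 1 it had 0.909 (0.608 to 1.32). The cell death genes Casp8 and Cflar had 1.02 (0.841 to 1.23) and 1.05 (0.842 to 1.29). Of the Wnt and Hedgehog genes, the receptor gene Fzd5 had 1.07 (0.832 to 1.37) and the ligand gene Ihh 1.21 (0.983 to 1.47). In barcodes with 2 or more Fn1 UMIs Ihh had 1.59 (1.21 to 2.06), and in those with 1 it had 0.948 (0.712 to 1.24). Of 6 transcription factor genes, 5 had a ratio below 1, against 115 of all 239 genes, and 1 (Arid5a) was past 1.5-fold lower, against 5.86% of all genes. The extracellular matrix and adhesion list had too few UMIs for most members: of 12 rows, 8 had a UMI in any barcode and 3 reached 50. Of these 3, Pard3b was past 1.5-fold higher and Tmem237 past 1.5-fold lower, against 2.93% and 5.86% of all genes. Dst, a cytoskeletal linker gene, had 0.718 (0.491 to 1.02), which was also the median of the 3, against 1.01 over all genes. No collagen gene of the list reached 50 UMIs. Serpine2, an inhibitor of matrix proteases, had 3 UMIs in Fn1 barcodes and 23 in the others.

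Promoters of the genes singled out by rule, with Gsta3, Idh1 and Ndufb3, were searched for the core site of RBPJ, the DNA-binding partner of the activated Notch carried by all these mice. The searched letters were TGGGAA on both strands in the 250 bases before a gene's start, from RefSeq sequence on GRCm38.p6. They occur in 7094 of all 32851 promoters of that length (21.6%) and in at least 1 promoter of 7 of the 26 of these genes with an entry. Some of these genes have several listed starts, so a count of genes cannot be compared directly with a share of promoters. The letters of an AP-1 site, TGANTCA, occur in 6.75% of all promoters and in 1 of the 26. A pair is printed because it shows matches in 1 gene that was higher and in 1 that was lower in Fn1 barcodes. For Fhl2 the stretch is chr1:43196762-43197011, minus strand, and for Ccl20 chr1:83116516-83116765, plus strand, each read 5′ to 3′ along the gene. Capitals mark the match, which lies on the opposite strand and begins 133 bases before the start of Fhl2 (1 of its listed starts) and 43 bases before that of Ccl20.
Fhl2: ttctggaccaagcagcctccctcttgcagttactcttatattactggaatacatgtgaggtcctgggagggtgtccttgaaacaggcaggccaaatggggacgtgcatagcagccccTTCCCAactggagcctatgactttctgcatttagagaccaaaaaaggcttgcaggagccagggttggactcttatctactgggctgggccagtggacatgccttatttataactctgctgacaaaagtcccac
Ccl20: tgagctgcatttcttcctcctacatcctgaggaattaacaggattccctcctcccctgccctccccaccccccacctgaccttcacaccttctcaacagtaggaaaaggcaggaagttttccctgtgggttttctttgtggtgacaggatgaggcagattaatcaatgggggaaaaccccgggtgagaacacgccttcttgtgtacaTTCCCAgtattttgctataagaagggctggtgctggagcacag
The match is a description of letters, and no binding was measured in these data.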

How the data were processed

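The counts come as 1 table that the authors deposited, with gene symbols in rows and 1460 distinct cell barcodes of 16 bases in columns. Per the submitters' processing notes, the build was mm10 and the tools were Cell Ranger and Seurat 2.3.0, with no role or order given. No source used here states a filter before deposit, the gene annotation or the use of strand in counting. The counts were read as UMIs. One incomplete row (928 values) was left out, and the number of value columns not used was 0. No column maps a barcode to 1 of the 8 samples, so the planned sums per sample were not run. Whether the 8 samples came from separate animals is not stated. No doublet caller was run.

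Barcodes under 100 UMIs (72 of 1460) were left out. Ratios are conditional estimates of 1 common ratio over 5 bins of total UMIs that begin at 100, 200, 300, 400 and 600, with exact intervals. For genes with over 3000 UMIs these use a normal approximation. Levels carry exact Poisson and shares exact Clopper-Pearson intervals. UMIs of a gene that sit in a few barcodes make every interval too narrow. A count of 0 allows 3 counts over the group. Genes needed 50 UMIs. Singled out were the genes of the stated set (Igfbp2, Igfbp5, Irs1, Spats2l, Itm2c), list members, the 10 highest and 10 lowest ratios whose interval leaves out 1 and which keep their side of 1 without the 3 barcodes richest in the gene, and the 5 genes most like Fn1 by correlation of Pearson residuals (overdispersion parameter 100, limit 10). Cox5b was among these 5, and Ndufb3 and Idh1 were list members. They and other genes were picked for closer description after their values were seen. The members and lists were chosen with earlier results of these data known. The marking genes Alpi and Tm4sf20, and the highest shares of Gsta3, were added to the overlaps after values were seen. Alternatives changed the bins, the members, the filters, the denominator and the depth (thinning to 100 UMIs, 1 draw). The thinned alternative chose its members anew and used no bins. The scripts were tested on simulated data. Python 3.11.15, numpy 2.4.6 and scipy 1.17.1 were used.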

Additional observations from a re-analysis of the deposited data

Results flagged for a closer look

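Fn1 was also present in barcodes that the comparison did not use. The 72 barcodes with fewer than 100 UMIs held 6 Fn1 UMIs in 5 barcodes among 5043 UMIs, or 1190 CPM (exact Poisson 95% interval 437 to 2590), above the 595 CPM that a count of 0 allows there. The interval includes the 1098 CPM of the kept barcodes.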

How the results depend on the processing

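Of 239 genes, the 7 past 1.5-fold higher became 19 and the 14 lower became 22 when members needed 2 or more Fn1 UMIs. They became 25 and 36 after thinning to 100 UMIs. When genes needed only 20 UMIs, they were 11 and 24 of a larger set of 276 genes. The count of higher genes was 4 without the 3 barcodes richest in each gene, and 4 with members of exactly 1 Fn1 UMI, a setting added after the data were seen. Fewer UMIs or members stand behind the larger counts. The share of barcodes with Fn1 was 10.52% after thinning, which kept 1 of 69 barcodes of the deepest bin as a member. Thinning moved 3 of the followed ratios to the other side of 1, Arl4c to 1.232, Ccnyl1 to 0.8085 and Itm2c to 1.117. The thinned comparison used no bins of total UMIs. Its members were 17.3% of the shallowest bin and 1.45% of the deepest, so its ratios and counts are not depth-matched. Of 25 genes followed through 10 alternatives, 20 kept their side of 1 throughout; besides the 3 above, Irs1 was 0.8232 and Unc50 0.9942 with members of exactly 1 Fn1 UMI. Bins, denominator, the 100-UMI minimum and leaving out the deepest 70 barcodes moved neither count by over 1.5 times. No paired analysis was possible because the barcodes carry no sample or replicate number. With 1 pooled sample, differences between animals and between the 8 samples could not be estimated, and ratios of genes with under about 100 UMIs have intervals several-fold wide.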
